A study of Rattus norvegicus with 14 samples.

Results

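The genes described here are the receptor activator of NF-kB (RANK) axis and the genes of bone-resorbing osteoclasts, in RNA sequencing of rat aorta. The 10 genes were chosen by name: Tnfsf11, Tnfrsf11a, Tnfrsf11b, Nfatc1, Oscar, Acp5, Ctsk, Atp6v0d2, Calcr and Dcstamp. Of these, 9 have a row among the 17019 genes of the deposited table; Dcstamp, which codes for a protein needed for fusion of osteoclast precursors, was not analysed here. Tnfsf11 and Calcr were listed at 0 in every library, which left 7 genes with values.

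The aortas came from 14 male Dark Agouti rats, with 1 library per rat; the labels give no ages. The 5 control rats had intact kidneys and stayed untreated for 14 weeks. The 5 uremic rats had 5/6 nephrectomy, a surgical loss of most kidney tissue, and were killed after 14 weeks of uremia. From week 8 they also received vitamin D as alfacalcidol, 30 ng given 3 times per week for 6 weeks. The 4 remaining rats had intact kidneys and vitamin D, at a dose and for a time that the labels do not give. The design text names a high-phosphate diet as a requirement for calcification without saying which rats ate it. Uremic and untreated control rats therefore differed in kidney mass and in vitamin D, and these cannot be told apart in that comparison, while uremic rats and controls with vitamin D differed in kidney mass but perhaps also in dose or diet.

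Osteoclasts form from cells of the monocyte and macrophage lineage. RANK ligand (Tnfsf11) binds RANK (Tnfrsf11a) on the precursor, and signals from RANK and from immunoreceptors such as Oscar raise the transcription factor Nfatc1, which switches on the genes of resorption. Osteoprotegerin (Tnfrsf11b) is a soluble decoy that captures RANK ligand, and in the artery wall it is made by smooth muscle and endothelial cells; mice without it develop calcified arteries and porous bone.

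Values are FPKM, read fragments scaled to transcript length and to library size, so levels of different genes can be set side by side. Tests used limma on log2(FPKM + 1) over every gene that reached 1 FPKM in 4 or more libraries of a comparison. A gene is called when its Benjamini-Hochberg adjusted p over all those genes is under 0.05. A difference on this scale understates the change of a low gene. Reads recovered from the steps of the values summed to 1331432 to 4540548 per library. This sum is below the full depth, since genes without recovered reads are left out. Among the abundant smooth muscle markers reads were recovered for only 2 of 6. The low members rest on few reads, given below. Aortic identity was checked with 6 smooth muscle markers, whose summed level was 20227 to 28371 FPKM in controls, 14691 to 26969 with vitamin D and 8893 to 19178 in uremic rats. Fat markers, given below, were uneven between rats of the same group. Because an aorta is a mixture, fewer cells of a type and less RNA per cell cannot be told apart.

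The levels of the members differed widely. Osteoprotegerin was by far the most abundant, with a mean of 279 ± 90.5 FPKM in controls (SD, n = 5), rank 232 of all 17019 genes in that group. Ctsk followed at 30.0 ± 5.09 FPKM, then Nfatc1 at 8.64 ± 1.27, Acp5 at 3.07 ± 0.563, Tnfrsf11a at 2.15 ± 0.180 and Oscar at 1.16 ± 0.505 FPKM. In controls each of these genes lay above the next in 5 of 5 libraries, although the ranges of the last pair, Tnfrsf11a and Oscar, overlapped. In uremic rats the order from osteoprotegerin through Ctsk and Nfatc1 to Acp5 was the same, while the ranges of Acp5, Tnfrsf11a, Atp6v0d2 and Oscar overlapped between neighbours. The lowest uremic value of Tnfrsf11b, 134 FPKM, lay just above the highest uremic value of Ctsk, 125 FPKM.

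**Figure D1:**
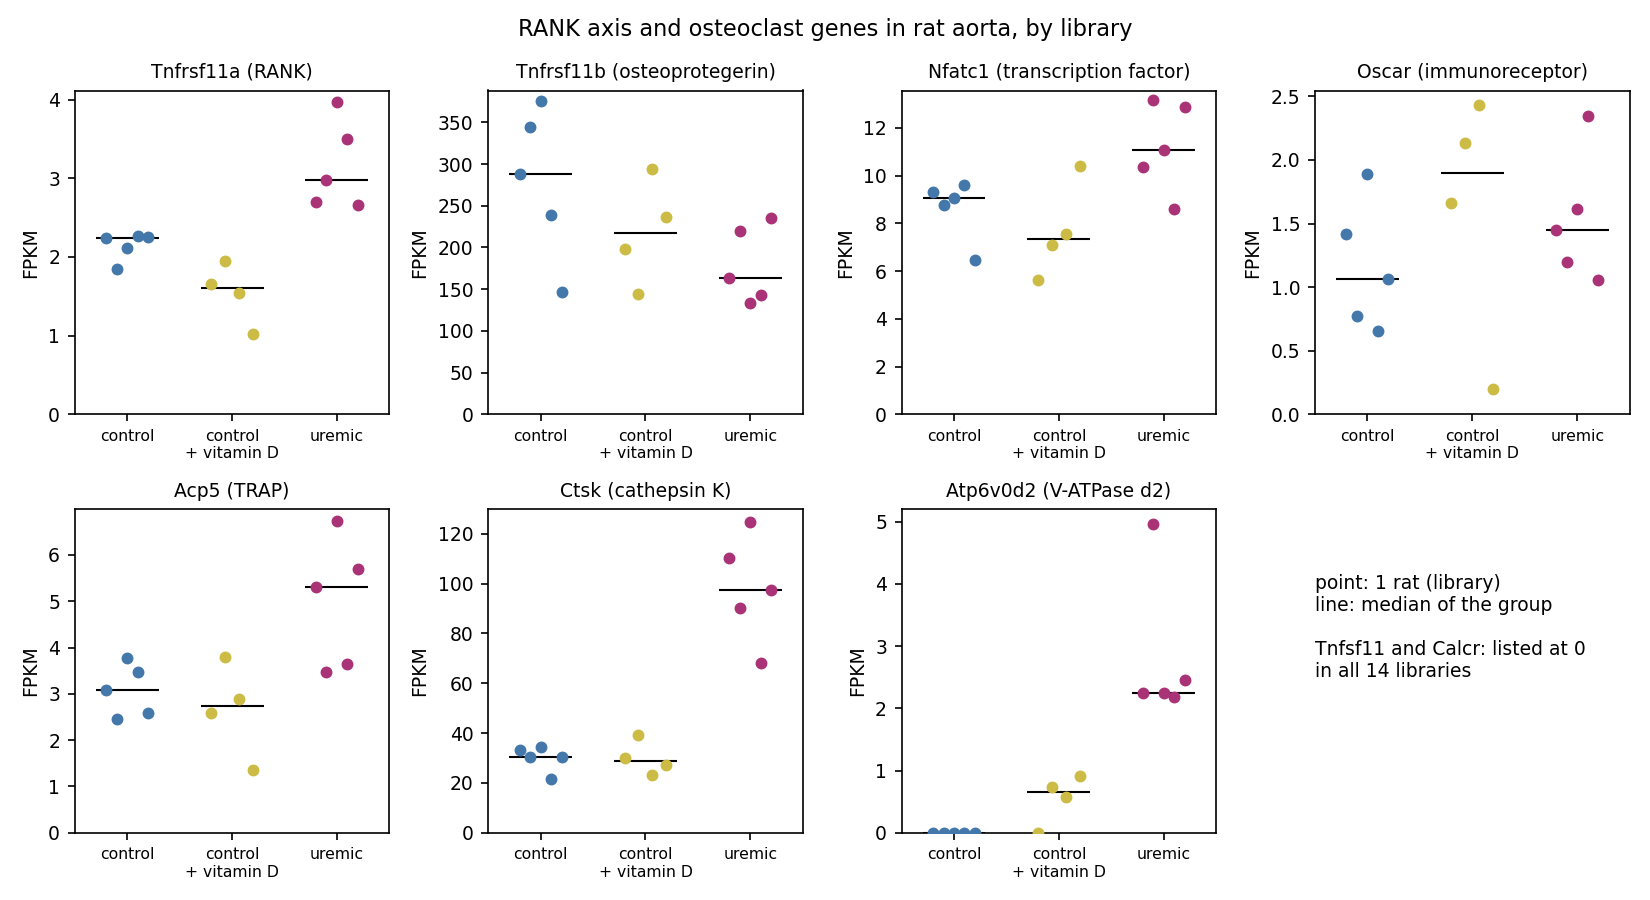
FPKM (vertical axes, from 0) of the 7 members with values, by group; each point is 1 rat and each line is the group median. The 5 uremic libraries lie above all others for Ctsk (68.2 to 125 FPKM), Atp6v0d2 (2.19 to 4.96 FPKM) and Tnfrsf11a (2.66 to 3.97 FPKM), while groups overlap for the other 4 genes.

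Against untreated controls, 2 of the 7 tested members were called in uremic aorta, Ctsk and Atp6v0d2, and both were higher. Over all 9957 genes tested in this comparison 21.9% were called, 11.4% as higher and 10.5% as lower; Atp6v0d2 passed the filter on low values only through the uremic libraries, so the members' count is a description. The median log2 difference of the 7 members was 0.39, against 0.00 over all genes tested. The groups did not overlap for 3 members (Ctsk, Atp6v0d2 and Tnfrsf11a), and in each the uremic rats were higher, as in 8.38% of all genes tested. Of all called genes 52.0% were higher with the values as deposited and 34.5% after scaling of the libraries to the same total FPKM, which moved the median gene by -0.10.

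Against controls with vitamin D, 3 of 7 tested members were called, Ctsk, Atp6v0d2 and Tnfrsf11a, all higher in uremic rats. Here 13.2% of all 9916 genes were called, 7.19% as higher, and again Atp6v0d2 passed the filter only through the uremic libraries. The median log2 difference of the members was 0.71, against 0.01 over all genes tested. The same scaling moved the share of higher genes among the calls from 54.4% to 33.6% and the median gene by -0.13. Ctsk, Atp6v0d2 and Tnfrsf11a had uremic values above every vitamin D control, as had 7.06% of all genes tested. Without uremic rat 27 the count of called members was 5, since Acp5 and Nfatc1 then passed. Both comparisons use the same 5 uremic libraries.

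Between controls with vitamin D and untreated controls, limma called 0 of 6 tested members, and 0 of 6 had an unadjusted p under 0.05. The voom variant of limma on recovered reads also called 0. Of all 9693 genes tested 0.134% were called, 13 genes in number, with 1782 at an unadjusted p under 0.05. The median log2 difference of the members was -0.18, against 0.00 over all genes. These libraries served as controls in the other comparisons too. The count of all called genes was 385 without control rat 46 and 393 without vitamin D rat 39, and 0 members were called in either case.

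**Figure D2:**
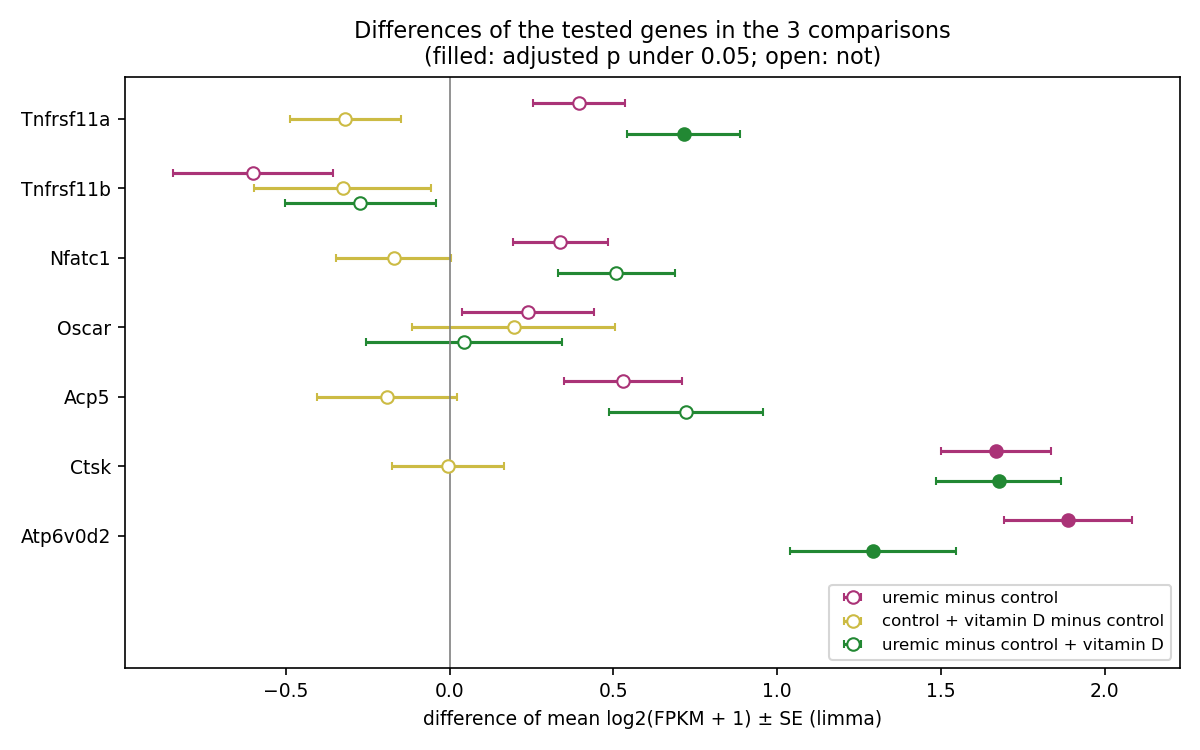
Difference of mean log2(FPKM + 1) with its SE from limma (horizontal axis) for the 7 tested members in the 3 comparisons; filled points have an adjusted p under 0.05. Ctsk and Atp6v0d2 are filled in both comparisons of uremic rats, Tnfrsf11a is filled against controls with vitamin D (0.71) and open against untreated controls (0.39), and no point of vitamin D against control is filled.

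RANK ligand (Tnfsf11, rn5 chr15:65727593-65757778) was listed at 0 in all 14 libraries. A listed 0 may be a failed estimate: of 19 genes that nearly every cell uses, Hprt1 was also listed at 0 in all 14 libraries and Ppia in 4. No statement about the level of the ligand can be drawn from these values. The same holds for Calcr (rn5 chr4:28532077-28607201), the calcitonin receptor of mature osteoclasts, also at 0 in all 14.

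RANK itself (Tnfrsf11a, rn5 chr13:30940550-30997692), the receptor on osteoclast precursors, read 2.25, 1.84, 2.12, 2.27 and 2.26 FPKM in control rats 41, 42, 43, 44 and 46. It read 2.70, 2.98, 3.97, 3.50 and 2.66 FPKM in uremic rats 9, 17, 20, 27 and 28, and 1.66, 1.95, 1.54 and 1.02 FPKM in vitamin D control rats 36, 37, 38 and 39. Every uremic value lay above every value of either control group, and 3 of the 4 vitamin D values lay below all untreated controls. The uremic mean was 3.16 ± 0.563 FPKM (SD, n = 5), against 1.54 ± 0.387 (n = 4) with vitamin D alone. Against those rats Tnfrsf11a rose by 0.71 on the log2 scale (SE 0.17, limma adjusted p = 0.0211), 2.05-fold in mean FPKM. That call was lost without uremic rat 20 (adjusted p = 0.0536), vitamin D rat 36 (0.0501) or vitamin D rat 38 (0.0542). The authors' deposited table gives a q value of 1 in every comparison. It gives the same for Tnfsf11 and Calcr, listed at 0 throughout, so this value may mark a gene that was not tested. Against untreated controls the difference was 0.39 (SE 0.14, limma adjusted p = 0.0625) and did not pass. The values rest on 12 to 17 recovered reads per control library, 7 to 17 with vitamin D and 20 to 70 in uremic rats.

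Osteoprotegerin (Tnfrsf11b, rn5 chr7:94436611-94464618), the decoy for RANK ligand, read 288, 344, 376, 239 and 147 FPKM in control rats 41, 42, 43, 44 and 46. Uremic rats 9, 17, 20, 27 and 28 read 164, 219.9, 134, 143 and 236 FPKM, and vitamin D rats 36 to 39 read 199, 144, 294 and 236 FPKM. The groups overlapped because control rat 46 was low, at 147 FPKM, while the other control rats were at 239 FPKM or more. The mean was 179 ± 46.0 FPKM in uremic rats (SD, n = 5), and the log2 difference from controls was -0.60 (SE 0.24, limma adjusted p = 0.0979), which did not pass. Without control rat 46 it was -0.81 and passed (adjusted p = 0.0117). It also passed when libraries were scaled to the same total FPKM, at -0.71, or -0.62 relative to the median gene (adjusted p = 0.0417). Against vitamin D controls, whose mean was 218 ± 63.3 FPKM (n = 4), the difference was -0.27 (SE 0.23, limma adjusted p = 0.480). The authors' deposited table gives q values of 0.0145 against control and 0.416 against vitamin D controls. Its values rest on at least 834 recovered reads in every library.

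The ratio of decoy to receptor within a library put both genes on 1 scale. Tnfrsf11b exceeded Tnfrsf11a 65.1-fold to 187-fold in controls (median 128) and 74.0-fold to 232-fold with vitamin D, but 33.7-fold to 88.6-fold in uremic rats (median 60.6). The ranges overlapped through control rat 46, at 65.1, and vitamin D rat 37, at 74.0. No test was run on this ratio, whose components were described above.

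The wider TNF families were counted in uremic against control rats, where 21.9% of all genes tested were called. Among 10 tested TNF receptors Tnfrsf1b, a receptor for TNF on leukocytes, rose by 0.81 on the log2 scale (SE 0.19, limma adjusted p = 0.00989), and 0 fell. Without control rat 41 or uremic rat 27 the count was 2 higher and 1 lower. Among 4 tested ligands Tnfsf12 (TWEAK) fell by 0.65 (SE 0.11, adjusted p = 8.8e-04). Without control rat 43 there was also 1 higher, and without control rat 44 there were 2 lower. Tnfsf12 averaged 194 FPKM in controls, 136 FPKM with vitamin D and 124 FPKM in uremic rats. Against controls with vitamin D, limma called Tnfrsf1b (adjusted p = 0.0104) but not Tnfsf12 (0.570). Of 13 tested genes fixed as inducers of RANK ligand in stromal cells, 6 rose and 0 fell: Il6 by 2.99 (SE 0.29), Osmr by 1.70 (SE 0.17), Il11 by 1.11 (SE 0.24), and also Ror2, Ptgs2 and Vdr. Il6 and Il11 are cytokines, Osmr is a subunit of the oncostatin M receptor, Ror2 a receptor for Wnt5a, Ptgs2 an enzyme of prostaglandin synthesis and Vdr the vitamin D receptor. Il6, Il11 and Ror2 reached 1 FPKM in 0 of 5 controls and entered the test only through the uremic libraries, so their calls add no support to the count. Only 9 inducers were tested between vitamin D and untreated controls, so the genes just named are not all that depended on the uremic libraries. With 1 rat left out, Vdr passed only without control rat 41 or 46 or uremic rat 17, Ptgs2 only without control rat 41 or uremic rat 17, while Ror2 passed in 5 of the 6 fits that tested it, not without control rat 42, and, like Il11, was under the filter without uremic rat 9, 17, 20 or 28. Ptgs2 had an adjusted p of 0.571 in a single fit of all 3 groups. The count of 6 was 3 without control rat 42 or uremic rat 9 and 2 without uremic rat 20 or 28, and 3 with a pseudocount of 0.01.

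Downstream of RANK, genes of signal proteins were called in both directions, at about the share called over all genes tested (21.9%). Of 22 tested adaptors, kinases and transcription factors of this pathway, 1 rose and 4 fell in uremic against control rats, with a median of 0.11. The median was -0.011 without control rat 42, 0.0078 without control rat 46 and -0.0018 after scaling to the same total, where 7 fell. The AP-1 subunit Jun averaged 216 ± 62.5 FPKM in controls and 65.9 ± 6.70 FPKM in uremic rats (SD, n = 5 each), a fall by 1.66 on the log2 scale (SE 0.18, limma adjusted p = 4.0e-05). Fosl1, another AP-1 subunit, rose by 2.13 (SE 0.35, adjusted p = 9.2e-04). The kinase Src, which osteoclasts need to form their ruffled border in mice, fell by 0.87 (SE 0.19), and Mitf, a partner of the osteoclast programme, by 0.61 (SE 0.14). The fourth to fall was Rela, an NF-kB subunit, by 0.63 (SE 0.15). Of 8 tested brakes on the pathway 3 rose and 0 fell: the inhibitory receptor Lilrb4 by 2.40 (SE 0.26), the repressor Irf8 by 0.91 (SE 0.23) and the calcineurin inhibitor Rcan1 by 0.79 (SE 0.25). Lilrb4, Irf8 and Fosl1 had control medians of 0.383, 0.737 and 0.648 FPKM. They passed the filter on low values only through the uremic libraries, so their calls add no support to the counts. The call of Rcan1 was lost without any of control rats 41, 42 and 44 or uremic rats 9, 17 and 28, with adjusted p between 0.0549 and 0.0865. Against controls with vitamin D, limma also called Jun (adjusted p = 0.0122) and Lilrb4 (3.3e-04). It did not call Fosl1 (0.196), Src (0.243), Mitf (0.375), Rela (0.333), Irf8 (0.358) or Rcan1 (0.787). Rcan1 averaged 132 FPKM in controls, 253 FPKM with vitamin D and 230 FPKM in uremic rats.

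Nfatc1 (rn5 chr18:76309900-76426095), the master transcription factor of osteoclasts, read 9.33, 8.75, 9.06, 9.62 and 6.45 FPKM in control rats 41, 42, 43, 44 and 46. In uremic rats 9, 17, 20, 27 and 28 it read 10.3, 13.2, 11.1, 8.61 and 12.9 FPKM, and in vitamin D rats 36 to 39 it read 5.62, 7.08, 7.57 and 10.4 FPKM. Of the uremic rats 4 lay above all untreated controls, and rat 27 lay among them. The difference from controls was 0.34 (SE 0.15, limma adjusted p = 0.115) and that from vitamin D controls 0.51 (SE 0.18, adjusted p = 0.0833). The latter passed without uremic rat 27 (0.0444) or vitamin D rat 39 (0.0322), and the authors' deposited table gives it a q value of 0.0301. For the other NFAT genes limma called 0 of 3 in uremic against control rats, with 1 at an unadjusted p under 0.05; 1 was called by voom and also without control rat 43 or uremic rat 27.

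Oscar (rn5 chr1:63173816-63180053), an immunoreceptor of osteoclasts and other myeloid cells, had values above 0 in all 14 libraries, with the lowest group mean of such members in control and uremic rats but not with vitamin D. It ranged from 0.652 to 1.89 FPKM in controls (median 1.07), from 1.06 to 2.35 FPKM in uremic rats (median 1.45) and from 0.195 to 2.43 FPKM with vitamin D. The groups overlapped, and the difference between uremic and control rats was 0.24 (SE 0.20, limma adjusted p = 0.432). Its library values rest on 1 to 35 recovered reads, so their precision is low.

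Several adaptors and kinases that serve Oscar and related immunoreceptors rose. In uremic against control rats 6 of the 9 tested genes of immunoreceptor co-stimulation rose and 0 fell. Over all genes tested 21.9% were called, 11.4% as higher. Only 7 co-stimulation genes were tested between vitamin D and untreated controls. Some of the 9 thus passed the filter on low values only through the uremic libraries, so any calls of theirs add no support to the count. The median of the 9 was 0.69, but 1.15 without control rat 43, 1.13 with a filter on the mean and 1.32 with a pseudocount of 0.01. The adaptor Tyrobp (DAP12) averaged 18.2 ± 5.54 FPKM in controls and 58.5 ± 18.1 FPKM in uremic rats (SD, n = 5 each), a rise by 1.63 on the log2 scale (SE 0.23, limma adjusted p = 3.2e-04). Fcer1g, the adaptor of Oscar, rose by 1.44 (SE 0.24), and the kinase Tec by 1.13 (SE 0.14), along with Syk and Blnk. The receptor Trem2 rose from 1.98 ± 1.32 to 5.98 ± 1.55 FPKM (limma adjusted p = 0.00448). Syk did not pass without control rat 42 or 44 or uremic rat 20 or 28 (adjusted p up to 0.0681), and with 1 rat left out Blnk passed only without control rat 44 or 46 or uremic rat 28. Of 5 tested genes of the M-CSF axis, which keeps macrophages and osteoclast precursors alive, 2 rose: the receptor Csf1r by 1.14 (SE 0.24) and the myeloid transcription factor Spi1 (PU.1) by 1.01 (SE 0.21). The ligand Csf1 differed by 0.13 (SE 0.19, adjusted p = 0.657).

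These are also genes of macrophages in general, and macrophage markers moved in the same comparison. Of 15 tested macrophage markers 13 rose and 0 fell, with a median log2 difference of 1.65. Over all genes tested 21.9% were called, 11.4% as higher. Only 13 macrophage markers were tested between vitamin D and untreated controls. Some of the 15 thus passed the filter on low values only through the uremic libraries, so any calls of theirs add no support to the count. The summed level of the 17 markers with a row was 81.0 to 208 FPKM in controls, 101 to 198 FPKM with vitamin D and 616 to 854 FPKM in uremic rats, with no overlap between uremic and other rats. Marco was listed at 0 in all 14 libraries. The part of these cells in the results on Ctsk, Atp6v0d2, Tnfrsf11a, Acp5 and the co-stimulation genes was not tested. T cell markers had 0 of 2 tested genes called by limma (1 at an unadjusted p under 0.05, 0 by voom), and no B cell marker passed the filter.

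Ctsk (rn5 chr2:216154167-216164779) codes for cathepsin K, the collagen-cutting protease that osteoclasts release into the resorption pit. It read 33.2, 30.3, 34.5, 21.5 and 30.3 FPKM in control rats 41, 42, 43, 44 and 46 and 30.2, 39.0, 23.2 and 27.4 FPKM in vitamin D rats 36, 37, 38 and 39. In uremic rats 9, 17, 20, 27 and 28 it read 110.3, 90.2, 125, 68.2 and 97.5 FPKM. The lowest uremic library lay well above the highest of the other 9. The uremic mean of 98.2 ± 21.3 FPKM (SD, n = 5) was 3.28-fold that of controls, 30.0 ± 5.09 FPKM (n = 5), and moved Ctsk from rank 2379 to rank 691 of all genes. The rise was 1.67 on the log2 scale (SE 0.17, limma adjusted p = 2.8e-05) against controls and 1.68 (SE 0.19, adjusted p = 6.1e-04) against vitamin D controls. It passed in all 20 alternative settings of the first comparison and all 19 of the second, leaving out each rat included. Vitamin D controls, at 30.0 ± 6.71 FPKM (n = 4), differed from untreated controls by -0.01 (SE 0.17, adjusted p = 0.988). Recovered reads were 69 to 137 per control library and 316 to 710 per uremic library, and the authors' deposited table gives a q value of 6.5e-04 in both comparisons of uremic rats.

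The start regions of Ctsk and Acp5 are shown because both genes are known from mouse osteoclasts as targets of Mitf, Nfatc1 and PU.1, the proteins whose genes appear above. RefSeq windows on build GRCr8 were found for 5 of the 10 members. Windows of 300 bases, from 250 before the start to 50 after it, were searched on both strands for CATGTG and CACGTG (E-boxes), TGANTCA (AP-1), TGGAAA (NFAT core) and GAGGAA (PU.1 core). The 250 bases before the start are printed, with matches in capitals. Ctsk has 1 window, on chr2:185747298-185747547 (plus strand); Acp5 has 2 windows for 2 starts, on chr8:28945931-28946180 and chr8:28943930-28944179 (minus strand).
Ctsk: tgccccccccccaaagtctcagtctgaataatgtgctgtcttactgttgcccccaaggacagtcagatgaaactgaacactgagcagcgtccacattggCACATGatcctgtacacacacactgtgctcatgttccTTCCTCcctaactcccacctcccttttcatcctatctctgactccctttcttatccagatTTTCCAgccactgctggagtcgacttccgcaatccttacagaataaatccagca
Acp5, first start: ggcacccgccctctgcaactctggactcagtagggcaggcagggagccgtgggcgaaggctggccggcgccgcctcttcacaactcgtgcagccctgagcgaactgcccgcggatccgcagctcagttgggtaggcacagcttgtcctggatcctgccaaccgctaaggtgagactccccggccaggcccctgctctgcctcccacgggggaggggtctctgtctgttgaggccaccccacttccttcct
Acp5, second start: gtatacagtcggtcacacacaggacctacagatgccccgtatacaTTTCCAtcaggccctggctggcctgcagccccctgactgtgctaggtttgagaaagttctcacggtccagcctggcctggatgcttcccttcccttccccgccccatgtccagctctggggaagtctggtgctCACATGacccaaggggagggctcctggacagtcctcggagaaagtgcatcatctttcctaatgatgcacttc
In Ctsk an E-box (CACATG on this strand, the reverse complement of CATGTG) begins 151 bases before the start. A PU.1 core (TTCCTC) begins 114 bases and an NFAT core (TTTCCA) 54 bases before the start. The second start of Acp5 has an NFAT core 205 bases and the same E-box 72 bases before it, and the first start has 0 matches. Such letters are common: of 33469 RefSeq windows of this length 14.0% hold CATGTG, 6.4% CACGTG, 7.3% TGANTCA, 22.7% TGGAAA and 27.6% GAGGAA, on either strand. A match describes the letters only, and binding was not measured.

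Acp5 (rn5 chr8:23197094-23201927) codes for tartrate-resistant acid phosphatase, the enzyme stained to show osteoclasts, which some macrophages also make. It read 3.08, 2.46, 3.78, 3.47 and 2.58 FPKM in control rats 41, 42, 43, 44 and 46 and 5.30, 3.47, 6.72, 3.65 and 5.70 FPKM in uremic rats 9, 17, 20, 27 and 28. Vitamin D rats 36 to 39 read 2.58, 3.79, 2.88 and 1.36 FPKM. Uremic rats 9, 20 and 28 lay above all other rats, while rats 17 and 27 lay within the control range. The mean was 4.97 ± 1.39 FPKM in uremic rats and 3.07 ± 0.563 FPKM in controls (SD, n = 5 each), a difference of 0.53 on the log2 scale (SE 0.18, limma adjusted p = 0.0517) that did not pass. It passed without uremic rat 17 (0.0293) or uremic rat 27 (0.0323). Against vitamin D controls the difference was 0.72 (SE 0.24, adjusted p = 0.0662), and it passed without uremic rat 27 (0.0472) or vitamin D rat 37 (0.0394). It also passed in a single fit of all 3 groups (0.0308), and the authors' deposited table gives it a q value of 0.0432. For the other acid phosphatases limma called 0 of 3 in uremic against control rats, with 0 at an unadjusted p under 0.05 and 0 by voom.

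Ctsk was set beside the other lysosomal proteases. Of 10 tested genes of cathepsins and their cystatin inhibitors 7 rose and 0 fell in uremic against control rats, with a median of 0.63. Over all genes tested 21.9% were called, 11.4% as higher. Ctss, the cathepsin of antigen-presenting cells, averaged 19.6 ± 5.40 FPKM in controls and 67.0 ± 19.4 FPKM in uremic rats (SD, n = 5 each), a rise by 1.72 on the log2 scale (SE 0.22, limma adjusted p = 1.9e-04). Ctsz rose by 1.47 (SE 0.26), the inhibitor Cst3 (cystatin C) by 1.16 (SE 0.18) and the serine carboxypeptidase Ctsa by 0.73 (SE 0.12). Ctsl1, Ctsb and Ctsh also rose, Ctsh with an adjusted p of 0.0476 that passed only without control rat 41 or 43 or uremic rat 17 or 27 when 1 rat was left out.

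Within a library, Ctsk was 1.37-fold to 1.91-fold the level of Ctss in controls and 0.963-fold to 2.17-fold in uremic rats, so these ranges overlapped. Relative to Cd68, a lysosomal marker of macrophages, Ctsk was 1.94-fold to 5.52-fold in controls and 1.68-fold to 4.29-fold in uremic rats, again overlapping. Relative to Ctsb, which most cells make, it was 0.0530 to 0.0712 in controls, 0.0575 to 0.0724 with vitamin D and 0.133 to 0.197 in uremic rats, with no overlap. Ctsk thus stood higher against Ctsb in every uremic library, and overlapped with other groups when set against Ctss or Cd68. Cd68 and Ctsb were chosen for these ratios with earlier results known, and the ratios were not tested.

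**Figure D3:**
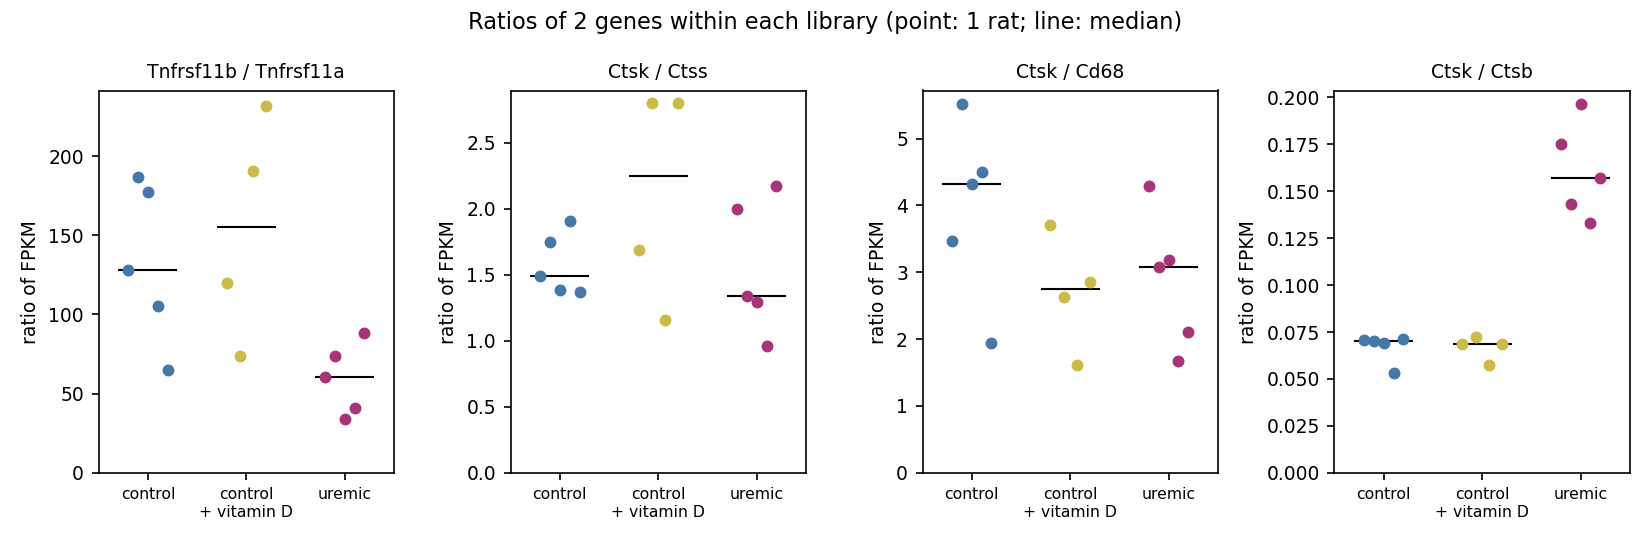
Ratio of the FPKM of 2 genes within each library (vertical axes, from 0), by group; each point is 1 rat and each line is the group median. Uremic rats are apart from the others for Ctsk over Ctsb (0.133 to 0.197) and overlap with them for the other 3 ratios.

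Atp6v0d2 (rn5 chr5:38499081-38547691) codes for the d2 subunit of the V-ATPase, the pump that acidifies the resorption pit, an isoform enriched in osteoclasts and some macrophages. It was listed at 0 in all 5 untreated controls. In vitamin D rats 36, 37, 38 and 39 it read 0, 0.737, 0.568 and 0.910 FPKM, and in uremic rats 9, 17, 20, 27 and 28 it read 2.25, 4.96, 2.25, 2.19 and 2.46 FPKM. Every uremic value lay above every other value, and rat 17 was about as far above the other uremic rats as these were above 0. The fitted difference was 1.89 on the log2(FPKM + 1) scale against controls (SE 0.19, limma adjusted p = 3.5e-05). Because the gene entered the test only through the uremic libraries, this p is given as a description, and so is its value under 0.05 in all 20 alternative settings. No fold is given against libraries listed at 0, and the size of this fitted difference depends on the pseudocount. Against vitamin D controls Atp6v0d2 rose by 1.29 (SE 0.25, adjusted p = 0.00780), but not with a pseudocount of 0.01 (0.0799). Vitamin D and untreated controls were compared by an exact 2-sided permutation test of log2(FPKM + 1), run for this gene and comparison alone: p = 0.0952 over 126 splits, and the same on FPKM without the log, where the smallest possible p is 0.00794. Recovered reads were few, 8 to 21 per uremic library and 0 to 3 with vitamin D. The authors' deposited table gives a q value of 1 for this gene in every comparison, which may mark a gene that was not tested.

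The other pump genes gave few calls. Of 16 other tested V-ATPase genes 1 was called higher and 0 lower in uremic than in control rats, with a median of -0.01. Over all genes tested 21.9% were called, 11.4% as higher. The gene that rose was Atp6v1e1, by 0.55 (SE 0.13, limma adjusted p = 0.00787). The count was 2 higher without uremic rat 28, 2 lower without control rat 46 and 3 lower after scaling to the same total. Atp6v0d1, the isoform of the d subunit found in most cells, averaged 53.1 ± 7.87 FPKM in controls and 43.0 ± 5.59 FPKM in uremic rats (SD, n = 5 each), a difference of -0.30 (SE 0.13, adjusted p = 0.118). It passed without control rat 46 (0.0411) or with scaling to the same total (0.0195). Within a uremic library Atp6v0d1 was 8.39-fold to 23.3-fold the level of Atp6v0d2.

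The machinery that works beside the pump gave 1 call. Of 11 tested genes for acid secretion, attachment and matrix lysis 1 rose and 0 fell, with a median of -0.06. Over all genes tested 21.9% were called, 11.4% as higher, and 1 of 11 is near the latter share. Ostm1, the partner of the chloride exchanger Clcn7, rose by 0.80 (SE 0.18, limma adjusted p = 0.00612), and a second gene passed without uremic rat 27. Against controls with vitamin D Ostm1 was not called (limma adjusted p = 0.214). Clcn7 itself differed by 0.22 (SE 0.13, adjusted p = 0.246). Tcirg1, the a3 pump subunit of osteoclasts, averaged 18.1 ± 2.05 FPKM in controls and 17.0 ± 2.38 FPKM in uremic rats (SD, n = 5 each), a difference of -0.09 (SE 0.12, adjusted p = 0.635). Tcirg1 was named after its values were seen. The gelatinase Mmp9 was under the filter on low values and had no test. Car2 and Itgav were not analysed here. Among 6 tested genes of cell fusion Cd44, a hyaluronan receptor, rose by 2.16 (SE 0.19, adjusted p = 1.0e-05) and Myo10, a filopodial myosin, by 0.87 (SE 0.22), with 0 lower (1 lower without control rat 46, 2 after scaling to the same total). Against controls with vitamin D, limma called Cd44 (adjusted p = 0.00521) but not Myo10 (0.465). Of 5 tested factors by which osteoclasts signal to osteoblasts 3 were called, all higher: Sphk1 was 3.61-fold higher in mean FPKM, Bmp6 rose by 1.27 (SE 0.30) and Cthrc1 by 0.78 (SE 0.24). With 1 rat left out Cthrc1 passed only without control rat 42 or uremic rat 17, 27 or 28.

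**Figure D4:**
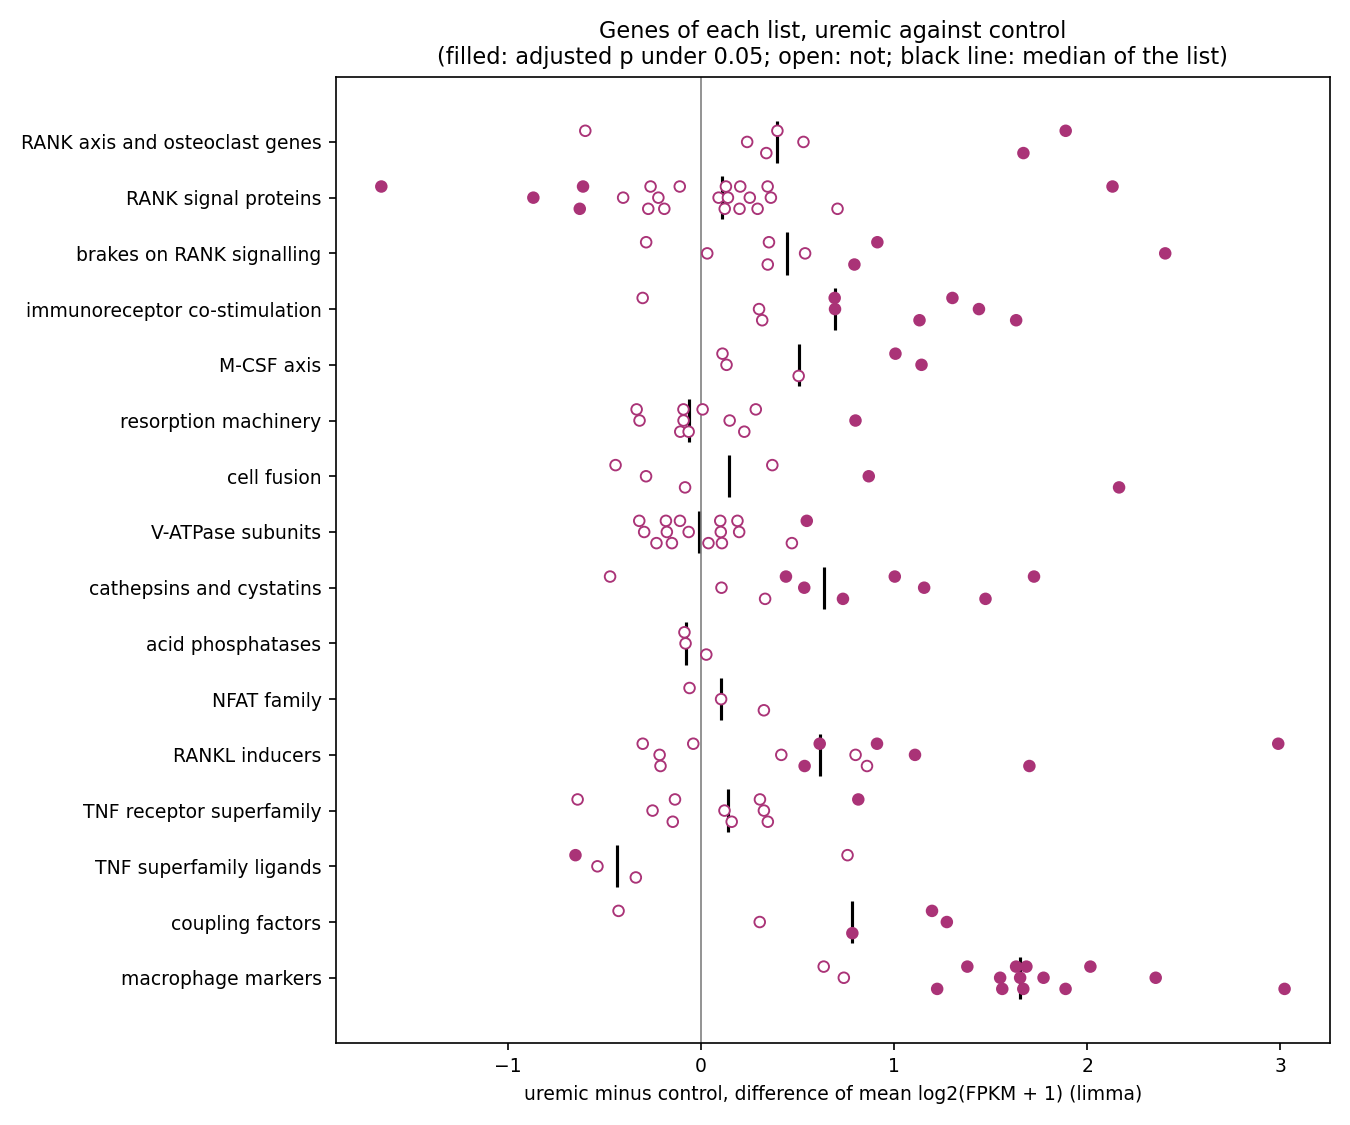
Difference of mean log2(FPKM + 1), uremic minus control (horizontal axis), of each tested gene in 15 pathway lists and in the macrophage markers; filled points have a limma adjusted p under 0.05 and black lines are list medians. Filled points number 13 of 15 for macrophage markers, 7 of 10 for cathepsins and cystatins and 6 of 9 for immunoreceptor co-stimulation. They number 1 of 16 for V-ATPase subunits and 1 of 11 for resorption machinery. Over all genes tested 21.9% were called, 11.4% as higher. Some macrophage and co-stimulation genes passed the filter on low values only through the uremic libraries.

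Against controls with vitamin D the lists gave the following counts. Over all 9916 genes tested 13.2% were called, 7.19% as higher, and small counts in short lists say little against that share. Immunoreceptor co-stimulation had 7 of 8 tested genes higher (4 without uremic rat 20), the M-CSF axis 3 of 5, cathepsins and cystatins 4 of 10 and RANK ligand inducers 4 of 13 (2 without vitamin D rat 36 or 38). RANK signal proteins had 1 higher and 1 lower of 22, and TNF receptors 2 higher and 1 lower of 10. Brakes on the pathway had 1 of 8 higher, cell fusion 2 of 6 and coupling factors 2 of 5. These small counts changed in some fits with 1 rat left out. Macrophage markers had 14 of 15 higher. Some genes of the macrophage, co-stimulation and inducer lists again passed the filter only through the uremic libraries. Any calls of theirs add no support to these counts. The V-ATPase list had 0 of 16 called by limma, with 1 at an unadjusted p under 0.05 and 0 by voom. The resorption machinery had 0 of 11, with 0 unadjusted and 0 by voom. TNF ligands had 0 of 4 and the other NFAT genes 0 of 3, each with 1 unadjusted and 0 by voom. The NFAT list had 1 higher without uremic rat 27, and the TNF ligands 1 higher without vitamin D rat 36. Acid phosphatases had 0 of 3, with 0 unadjusted and 0 by voom. Between vitamin D and untreated controls limma called 0 of 119 tested genes over the 14 pathway lists beside the members, with 27 at an unadjusted p under 0.05 and 0 by voom. Of all 9693 genes tested there 0.134% were called. Without control rat 46, 1 gene of the cathepsin list was called higher and 1 TNF ligand lower; without vitamin D rat 39, 1 V-ATPase gene was called higher and 1 TNF ligand lower. The uremic libraries are shared by the first 2 comparisons and each control group by 2, so these counts are not independent.

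Bone and cartilage markers were read beside the osteoclast genes. In uremic against control rats 21.9% of all genes tested were called, 11.4% as higher and 10.5% as lower. Of 8 tested osteoblast and osteocyte markers 4 rose and 2 fell in uremic against control rats; 1 fell without any of control rats 41 to 44 or uremic rats 17, 27 and 28. Of 4 chondrocyte markers 3 rose and 1 fell. The summed level of the 6 chondrocyte markers with a row was 28.5 to 45.3 FPKM in controls and 222 to 490.0 FPKM in uremic rats. Most of it was Comp, with means of 20.4 and 299 FPKM, while Ucma fell from a mean of 6.19 to 0.225 FPKM. The summed osteoblast and osteocyte markers were 1883 to 2344 FPKM in controls and 833 to 1974 FPKM in uremic rats, which overlap. Of 6 smooth muscle markers 0 rose and 4 fell, or 2 without control rat 41 or 44 or uremic rat 20 or 28. Of 4 leukocyte markers 3 rose and 0 fell, and of 5 fibroblast markers 2 fell. The osteocyte marker Mepe, the chondrocyte marker Acan and the leukocyte marker Itgb2 had control medians of 0, 0.508 and 0.809 FPKM. They entered the test only through the uremic libraries, so their calls add no support to these counts. Fat markers had 1 higher and 2 lower of 7, and their summed level was uneven within groups. It was 5512 FPKM in control rat 46 and 2277 to 2642 FPKM in the other controls. In uremic rat 27 it was 6600 FPKM, and 1131 to 2661 FPKM in the other uremic rats. Vitamin D rat 39 had 2772 FPKM and rats 36 to 38 had 6155 to 8086 FPKM. The part of fat in results that changed without rats 27, 39 or 46 was not tested. Endothelial markers had 0 of 6 called by limma, with 3 at an unadjusted p under 0.05 and 1 by voom; without control rat 43 or 46 or uremic rat 28 there was 1 higher, and without uremic rat 27 there were 2 lower. Their part in the members' values was not tested.

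For each member tested in uremic against control rats, the 3 genes with the most similar profile over the 14 libraries were sought among 9748 candidates. Likeness was the root mean square gap between centred log2(FPKM + 1) profiles. Ctsk was closest to Emp1 (0.200), Capg (0.203) and Cd14 (0.214), and Atp6v0d2 to Nt5e (0.267), Osmr (0.279) and Sulf1 (0.284). Tnfrsf11a was closest to Ralb (0.161), Tmod3 (0.166) and Ifi30 (0.168), and Acp5 to Eng (0.188), Rcn1 (0.209) and Ppapdc1b (0.210). Tnfrsf11b was closest to Slc25a29 (0.234), Dgki (0.240) and Frmd6 (0.256). Nfatc1 was closest to Atg4al1 (0.115), Ascc2 (0.121) and Med15 (0.130), and Oscar to Spryd7 (0.203), Cebpb (0.227) and Car5b (0.249). A gene whose log2 values vary little has small gaps by construction, so gaps are compared only within a member.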

How the data were processed

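RNA of 14 rat aortas, enriched for polyadenylated molecules, was sequenced with 1 library per rat; rat 27 has 2 index sequences in its label. The tools named, per the submitters' processing notes, are Cufflinks 2.1.1 with Cuffdiff, TopHat2 2.0.10 and cutadapt 1.3 on rat build rn5; their settings are not given in the sources used here. The header of the deposited table names no unit; the values the authors made per gene and library were taken to be FPKM, the unit that Cufflinks writes. The deposited q values are the authors' own, 1 per gene and pair of groups, and were used only beside the fits.

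Whole reads could be recovered from the steps of the values, within 0.1 read, for 10917 of the 11294 genes (96.7%) detected in 8 or more libraries, and for 0% of 500 genes after libraries were shuffled. The median gene had 55 recovered reads per library. Acp5 had no recovered reads. Rats are separate animals, and SD and SE are over rats.

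Genes were fitted with limma 3.58.1 in R 4.3.3 (lmFit, eBayes with trend, 2-sided) on log2(FPKM + 1), within the 2 groups of a comparison, and the fit was tested on simulated data. Every SE and adjusted p printed comes from limma. A gene was tested when it reached 1 FPKM in 4 or more libraries. Alternatives were other pseudocounts (0.1 and 0.01), filters and scalings, 1 fit for all groups, a robust fit, voom on recovered reads and leaving out each rat. Python 3.11.15 with pandas 2.3.3, numpy 2.4.6, scipy 1.17.1 and matplotlib 3.10.9 made the summaries.

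The members, the 14 further pathway lists and the 10 marker lists were chosen with earlier results of these data known. Named genes are all members, up to 4 genes per list with the smallest p in uremic against control rats, and the 3 most similar genes per member. List genes named beyond these, and the comparison genes Cd68 and Ctsb, were chosen after their values were seen.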

Additional observations from a re-analysis of the deposited data

Results flagged for a closer look

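Dixon's test at the 95% level, which sets the distance of the highest or lowest rat from its neighbour against the whole spread of the group, marked single rats. Among 152 groups of 53 named genes 17 had a marked rat. Chance marks about 1 in 20 where values are normally distributed, which FPKM values with zeros need not be. A group with all other rats at 0, as for Mmp9 and Il6 below, is marked by construction. The count of 17 is therefore a description. Of the members, Nfatc1 was marked low in control rat 46 (6.45 FPKM, the next at 8.75) and Atp6v0d2 high in uremic rat 17 (4.96 FPKM, the next at 2.46).

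Control rat 46 was also low for Cst3 (1025 FPKM, the next at 1182) and high for Ctsz (16.8 FPKM, the next at 6.89). Uremic rat 17 was also high for Atp6v1e1 (128 FPKM, the next at 96.4). Uremic rat 27 was low for Tec (7.28 FPKM, the next at 9.92), Tnfsf12 (98.5 FPKM, the next at 125) and Ctsb (513 FPKM, the next at 620.2). Vitamin D rat 37 was high for Fosl1 (8.97 FPKM, the next at 2.71), Cd44 (24.5 FPKM, the next at 8.84), Il6 (2.76 FPKM, the others at 0) and Il11 (1.72 FPKM, the next at 0.473). Mitf was high in control rat 42 (25.0 FPKM, the next at 16.9) and Csf1 in control rat 41 (30.6 FPKM, the next at 19.9). Ror2 was low in control rat 42 (0.0794 FPKM, the next at 0.455). Mmp9 was above 0 in a single rat of each control group, at 0.161 FPKM in rat 43 and 0.165 FPKM in vitamin D rat 38.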

How the results depend on the processing

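No paired analysis was possible because the rat numbers are not shared between groups. In uremic against control rats the count of called genes ranged from 1684 to 2224 when each rat was left out, and the members called stayed within 1.5 times the count of 2 in every alternative run. In uremic against vitamin D controls the count of all called genes ranged from 659 (without vitamin D rat 36) to 1662, and that of members from 2 to 5. In vitamin D against untreated controls it ranged from 0 to 393; it was 3 with no filter on low values and 8 with quantile normalization. The causes were not tested.

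The sign of some differences that never passed the test turned. For Ctsk in vitamin D against untreated controls the log2 difference was 0.022 with the same total FPKM and -0.14 to 0.10 without each rat, and for Acp5 it was -0.34 to 0.0032 without each rat. For Oscar in uremic against vitamin D controls it was -0.033 with the same total FPKM, -0.17 with quantile normalization and -0.30 to 0.21 without each rat. Members under about 20 reads per library (Atp6v0d2, Oscar and in controls Tnfrsf11a) are limited by depth.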
